A study of Mus musculus with 6 samples.

Results

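The nuclear genes of the mitochondrial respiratory chain and ATP synthase were compared between eosinophils of Klf3-/- and WT mice, complex by complex. Members were taken by name from the array annotation, as probe sets with a single gene symbol that starts with Nduf, Sdha to Sdhd, Uqcr, Atp5 or Cox followed by 4, 5, 6, 7 or 8. The rule found 148 probe sets of 87 genes among the 17097 genes that had a probe set with a single symbol, and the brightest probe set over all arrays stood for each gene. Of the 87 genes, 77 encode subunits, with 32 in complex I, 4 in complex II, 7 in complex III, 17 in complex IV and 17 in complex V. The other 10 have symbols that meet the rule without encoding a core subunit, and they were kept apart. They comprise the 7 complex I assembly factors of the Ndufaf series, Cox7a2l, Ndufa4l2 and the pseudogene symbol Ndufs5-ps.

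The samples were 3 Klf3-/- and 3 WT male mice on the FVB/NJ background. They were littermates from Klf3+/- crosses, 12 weeks old, kept at 22 °C on standard chow and given no treatment. Eosinophils were sorted from the stromal vascular fraction of inguinal subcutaneous adipose tissue by high side scatter and the surface markers CD45, CD11b, F4/80 and Siglec-F, and each mouse was read on 1 GeneChip HT MG-430PM array after amplification of its RNA. These arrays do not show the labelled cell type by its defining markers. Siglecf, the gene of the sort marker, averaged 4.15 ± 0.11 in Klf3-/- and 4.58 ± 0.21 in WT samples (SD, n = 3 each), below the level of 5.10 log2 units that 95% of the olfactory receptor probe sets stayed under and that served as background. The means of Ccr3, Epx, Prg2 and Il5ra were also below it, and 2 of the 8 measured eosinophil markers had means above it, against 11 of 11 macrophage, 9 of 9 dendritic cell and 10 of 10 stromal markers. Eosinophils here therefore means the samples as sorted and labelled. The Klf3-/- allele is carried by every cell of the animal, so the genotype is not limited to eosinophils. Values are log2 intensities after quantile normalisation between the arrays, fold changes are Klf3-/- over WT, and p-values are from limma, with Benjamini-Hochberg adjustment across the 45037 probe sets of the array.

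The respiratory chain lies in the inner mitochondrial membrane. Complex I (NADH dehydrogenase) and complex II (succinate dehydrogenase) pass electrons to ubiquinone, complex III (the cytochrome bc1 complex) passes them on to cytochrome c, and complex IV (cytochrome c oxidase) passes them to oxygen. Complexes I, III and IV pump protons, and complex V (ATP synthase) uses the proton gradient to make ATP. All complexes but complex II also hold subunits encoded by mitochondrial DNA, which are not among the members. Eosinophils draw on both glycolysis and mitochondrial respiration, and the same complexes supply the gradient that UCP1 dissipates in brown and beige adipocytes. KLF3 is a transcriptional repressor that binds CACCC boxes in DNA.

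The promoters were searched for the form CCACACCC of such boxes because KLF3 is the factor that the mutant mice lack. Windows of 250 bases upstream of the transcription start were taken from RefSeq on GRCm38.p6, the C57BL/6J reference rather than the FVB/NJ genome of the mice, and 75 windows of 70 members were held there. The KLF motif CCACACCC, read on both strands, occurred in 3 of 75 member windows (4.0%), against 1050 of 32851 windows over all genes (3.2%). Those 3 windows are shown 5′ to 3′ up to the base before the start, with the motif in capitals. The shorter stretch CACCC was neither searched nor marked, and it also occurs elsewhere in the windows printed here.
Atp5j2 chr5:145191542-145191791 (- strand): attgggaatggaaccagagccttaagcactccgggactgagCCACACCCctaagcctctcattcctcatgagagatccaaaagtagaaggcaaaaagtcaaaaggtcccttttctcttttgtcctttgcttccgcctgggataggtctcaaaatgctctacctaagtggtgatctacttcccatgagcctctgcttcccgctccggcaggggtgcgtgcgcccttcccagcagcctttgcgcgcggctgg
Ndufb7 chr8:83566508-83566757 (+ strand): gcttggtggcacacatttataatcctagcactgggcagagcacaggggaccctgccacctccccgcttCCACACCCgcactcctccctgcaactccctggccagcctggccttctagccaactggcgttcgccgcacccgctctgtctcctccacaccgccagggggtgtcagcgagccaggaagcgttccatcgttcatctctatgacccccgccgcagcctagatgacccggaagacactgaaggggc
Ndufaf3 chr9:108567437-108567686 (- strand): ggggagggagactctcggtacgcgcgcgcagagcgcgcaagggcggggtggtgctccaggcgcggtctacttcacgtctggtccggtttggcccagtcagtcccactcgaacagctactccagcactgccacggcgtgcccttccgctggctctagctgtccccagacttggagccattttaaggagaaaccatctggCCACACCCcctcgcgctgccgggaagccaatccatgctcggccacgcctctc
The motif of NRF-1, a transcription factor known for respiratory chain genes, was searched on both strands as GCGC followed by A, any base and GCGC. It occurred in 14 of 75 member windows (18.7%), against 1228 of 32851 windows over all genes (3.74%). It was present in 6 of 31 windows of complex I, 2 of 3 of complex II, 0 of 4 of complex III, 1 of 12 of complex IV and 4 of 18 of complex V. The windows of Sdha and Ndufb4 held 3 matches each and are shown with the matches in capitals.
Sdha chr13:74350241-74350490 (- strand): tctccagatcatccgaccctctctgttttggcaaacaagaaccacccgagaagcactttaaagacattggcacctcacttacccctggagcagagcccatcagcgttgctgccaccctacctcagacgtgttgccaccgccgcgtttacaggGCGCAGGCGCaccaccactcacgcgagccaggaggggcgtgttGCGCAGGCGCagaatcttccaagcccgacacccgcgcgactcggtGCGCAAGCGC
Ndufb4 chr16:37654369-37654618 (- strand): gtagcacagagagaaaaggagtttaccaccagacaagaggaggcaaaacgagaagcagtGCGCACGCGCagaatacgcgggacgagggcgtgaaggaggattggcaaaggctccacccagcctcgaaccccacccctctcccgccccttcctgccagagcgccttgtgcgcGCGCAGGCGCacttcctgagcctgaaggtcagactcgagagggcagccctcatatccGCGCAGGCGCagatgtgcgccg
The motif TCAAGGTCA of the estrogen-related receptors occurred in 1 of 75 member windows (1.33%, against 0.387% of all windows). The ETS motif CCGGAAGT bound by GABP occurred in 2 of 75 (2.67%, against 2.88%), and the YY1 motif AAGATGGC in 1 of 75 (1.33%, against 1.56%). A match gives only the letters of the window, and binding was not measured in these data.

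The 3 genes with the motif CCACACCC in their windows had log2 fold changes near 0. Atp5j2, which encodes the f subunit in the membrane part of ATP synthase, read 10.67, 10.61 and 10.98 in Klf3-/- mice 1 to 3, against 10.61, 10.81 and 10.77 in WT mice 1 to 3 (log2 fold change 0.02, SE 0.19, limma adjusted p = 0.996). Ndufb7, an accessory subunit in the membrane arm of complex I, read 9.82, 9.06 and 9.82 in Klf3-/- mice, against 9.67, 9.78 and 9.68 in WT mice (-0.14, SE 0.25, adjusted p = 0.971). Klf3-/- mouse 2 read the lowest of the 6 for Ndufb7, and the other Klf3-/- arrays lay above all WT arrays. The assembly factor Ndufaf3 had a log2 fold change of 0.07 (SE 0.32). The genotypes overlapped for all 3 genes.

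No member of any complex passed the threshold. The limma test gave 0 of 87 members at an adjusted p under 0.05, against 0 of 17097 genes (0.0%) and 0 of 45037 probe sets, and the smallest adjusted p of a member was 0.868. At an unadjusted p under 0.05, 0 members were higher in Klf3-/- eosinophils (3.61% of all genes) and 1 was lower, Cox4i2 (2.47% of all genes). An analysis of variance per probe set, one-way or with the replicate number as a further factor, also gave 0 members after adjustment. The arrays of the genotypes did not overlap for 3 members that were higher in Klf3-/- (Cox7a2, Cox6c and Atp5k), where 4.84% of all genes did so. They did not overlap for 1 member that was lower (Cox7a2l), where 6.55% of all genes did so. On the values as deposited the genotypes overlapped for these 4 genes, and Cox4i2 was the only member without overlap. It was lower (1.15% of members, against 0.316% of all genes on that scale), and 0 members were higher without overlap (against 4.21%). A log2 fold change over 0.5 in size was measured for 1 of 87 members (Cox4i2), against 15.0% of all genes and 13.8% of the 3965 genes with a mean of at least 8 log2 units. In bulk RNA of a sorted population, a gene lower per cell and a smaller share of the cells that express it cannot be told apart.

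The precision of the comparison is given by the intervals. Standard errors of the 87 log2 fold changes ran from 0.17 to 0.46. For 80 of 87 members the 95% interval lay within 1 log2 unit of 0 on both sides, that is, within a 2-fold difference, against 68.7% of all genes and 72.9% of genes with a mean of at least 8. The 7 members whose interval reached further were Uqcrb, Uqcr11, Cox4i2, Cox7a1, Atp5g2, Ndufaf1 and Ndufaf2. Only the interval of Cox4i2 excluded 0, from -1.67 to -0.17. The log2 fold changes of the members had an SD of 0.19 across genes, against 0.42 across all genes and 0.40 across genes with a mean of at least 8. The small SD was not particular to the members, with 0.19 across cytosolic and 0.25 across mitochondrial ribosomal protein genes. Genes are not independent replicates. Smaller differences than these intervals span were not detectable with 3 arrays per genotype.

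**Figure D1:**
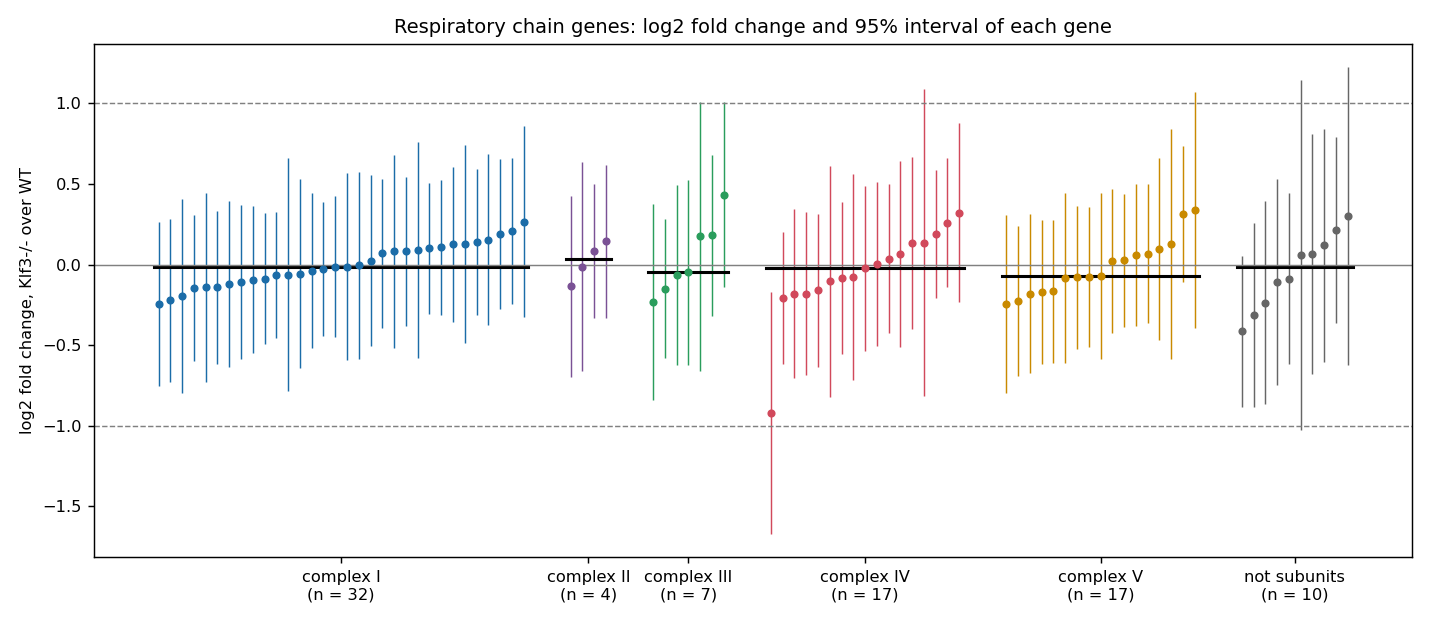
Log2 fold change, Klf3-/- over WT (vertical axis), of each of the 87 members, sorted within complexes I to V and the 10 members that are not subunits. Points are genes, thin bars are 95% intervals from limma, thick black bars are group medians, and dashed lines mark 1 log2 unit on either side of 0. The medians lie between -0.07 and 0.04, and the point at -0.92 in complex IV is Cox4i2.

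Each complex divided nearly evenly between genes above and below 0. Of 32 subunits of complex I, 14 read higher and 18 lower in Klf3-/- eosinophils, with a median log2 fold change of -0.01. The counts were 2 and 2 of 4 in complex II (median 0.04), 3 and 4 of 7 in complex III (-0.05), 8 and 9 of 17 in complex IV (-0.02), and 8 and 9 of 17 in complex V (-0.07). Over all 87 members 40 were higher and 47 lower, with a median of -0.01, where the median of all genes was -0.04 and 44.8% of them were higher. This split depends on how the arrays are put on a scale. On the values as deposited 79 members were higher and 8 lower, with a median of 0.18 against 0.13 for all genes, and after centring each array on its median 36 were higher and 51 lower. Relative to the median of all genes, 47 of 87 members lay above it after quantile normalisation and 54 of 87 on the values as deposited.

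**Figure D2:**
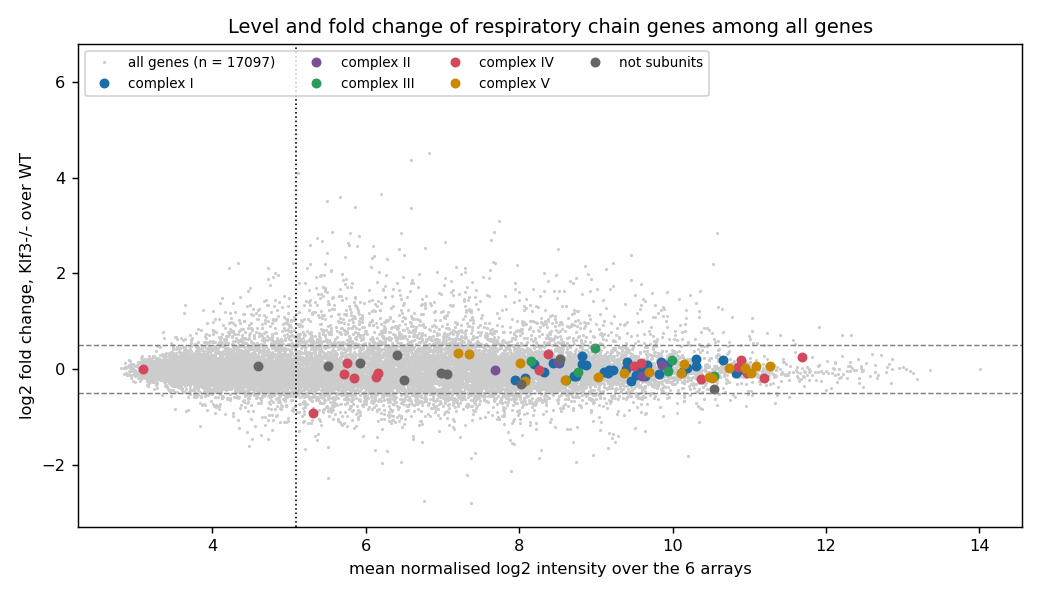
Log2 fold change, Klf3-/- over WT (vertical axis), against the mean normalised log2 intensity over the 6 arrays (horizontal axis) of all 17097 genes (grey) and of the members, coloured by complex. The dotted line is the olfactory receptor level of 5.10 and the dashed lines mark 0.5 on either side of 0, outside which 1 of 87 members lies.

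Complex I has a peripheral arm, which oxidises NADH and reduces ubiquinone, and a membrane arm, which pumps protons. The 6 core subunits of the peripheral arm (Ndufv1, Ndufv2, Ndufs1, Ndufs3, Ndufs7 and Ndufs8) had a median log2 fold change of -0.03, with 2 higher and 4 lower. The 9 accessory subunits of that arm had 3 higher and 6 lower (median -0.03), and the 16 accessory subunits of the membrane arm had 8 and 8 (median 0.03). All 32 values lay between -0.24 and 0.27. Ndufs3, a core subunit near the ubiquinone site, had the lowest of them, with 9.59, 9.32 and 9.11 in Klf3-/- mice 1 to 3, against 9.69, 9.32 and 9.75 in WT mice 1 to 3 (-0.24, SE 0.22, adjusted p = 0.953). The values of WT mouse 2 and Klf3-/- mouse 2 were alike, and Klf3-/- mouse 1 lay above WT mouse 2, so the genotypes overlapped. Ndufb4, an accessory subunit of the membrane arm, had the highest, with 8.73, 8.94 and 9.20 in Klf3-/- mice, against 8.43, 9.12 and 8.52 in WT mice (0.27, SE 0.25, adjusted p = 0.954). WT mouse 2 lay within the Klf3-/- range there, and a second Ndufb4 probe set gave 0.24. The other Ndufb4 probe set, with a mean of 4.36 near background, gave -0.30. Ndufa5 had a log2 fold change of 0.21 (SE 0.19) and Ndufa7 of -0.22 (SE 0.21), both accessory subunits of the peripheral arm. The second Ndufa5 probe set, with a mean of 9.24, gave -0.01. Ndufa7 had 5 probe sets, the most of any member, and their log2 fold changes ran from -0.36 to -0.08. Ndufb11, an X-linked membrane-arm subunit, averaged 10.85 ± 0.12 in Klf3-/- and 10.87 ± 0.17 in WT eosinophils (SD, n = 3 each).

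Complex II consists of 4 subunits, which were all measured. Sdha, the flavoprotein that oxidises succinate, read 9.86, 9.89 and 9.97 in Klf3-/- mice 1 to 3, against 9.74, 9.73 and 10.0 in WT mice 1 to 3 (0.09, SE 0.18, adjusted p = 0.976). Sdhb, the iron-sulphur protein beside it, read 9.83, 9.16 and 9.60 in Klf3-/- mice, against 9.77, 9.82 and 9.41 in WT mice (-0.14, SE 0.24, adjusted p = 0.971). The Klf3-/- and WT ranges of both genes overlapped, and the low value of Sdhb was that of Klf3-/- mouse 2. The membrane anchor Sdhc read 8.68, 8.28 and 8.77 in Klf3-/- mice, against 8.32, 8.50 and 8.47 in WT mice (0.15, SE 0.20, adjusted p = 0.968). The other anchor, Sdhd, read 7.82, 7.20 and 8.03 in Klf3-/- mice, against 7.84, 7.88 and 7.37 in WT mice (-0.01, SE 0.28, adjusted p = 0.998). Klf3-/- mouse 2 read lowest of the 6 arrays for Sdhb, Sdhc and Sdhd but not for Sdha. One further Sdha probe set, close to the olfactory receptor level with a mean of 5.28, gave 5.67, 5.34 and 5.48 in Klf3-/- mice, against 5.14, 5.06 and 4.96 in WT mice (0.44, unadjusted p = 0.043, adjusted p = 0.901). Its genotypes did not overlap, the next Sdha probe sets gave 0.07 and 0.01, and it was the only one of 61 further member probe sets at an unadjusted limma p under 0.05, which 3.1% of all probe sets reached in the higher direction and 2.39% in the lower.

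Complex III had 7 members with log2 fold changes from -0.23 to 0.43. Uqcrb, the ubiquinone-binding subunit, had the highest log2 fold change of the 87 members. It read 9.15, 9.12 and 9.37 in Klf3-/- mice 1 to 3, against 8.39, 8.77 and 9.18 in WT mice 1 to 3 (0.43, SE 0.24, unadjusted p = 0.115, adjusted p = 0.910). WT mouse 3 lay above Klf3-/- mice 1 and 2, so the genotypes overlapped. Uqcrfs1, the Rieske iron-sulphur protein, averaged 8.49 ± 0.19 in Klf3-/- and 8.72 ± 0.43 in WT eosinophils (SD, n = 3 each; -0.23, SE 0.26). The core proteins Uqcrc1 and Uqcrc2 had log2 fold changes of 0.18 (SE 0.21) and -0.15 (SE 0.18). The second Uqcrc2 probe set, with a mean of 9.59, gave 0.04. The haem subunit Cyc1, whose symbol does not meet the rule, had -0.19 (SE 0.20).

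Complex IV was divided into 9 widely expressed subunits, 7 tissue-restricted isoforms and Ndufa4, a subunit that carries a complex I name. The widely expressed subunits had 5 higher and 4 lower, with a median of 0.04. Cox7a2, the isoform of subunit 7a found in most tissues, read 11.80, 11.93 and 11.73 in Klf3-/- mice 1 to 3, against 11.50, 11.56 and 11.63 in WT mice 1 to 3 (0.26, SE 0.17, adjusted p = 0.925). Every Klf3-/- array lay above every WT array, p was 0.1 in an exact two-sided permutation test, the smallest it can give with 3 arrays against 3, and the second Cox7a2 probe set gave 0.16. Cox6c, a small subunit outside the catalytic core, read 11.05, 10.98 and 10.95 in Klf3-/- mice, against 10.71, 10.80 and 10.90 in WT mice (0.19, SE 0.17, adjusted p = 0.953). Cox7a2 and Cox6c were the only members of complex IV whose genotypes did not overlap. The second Cox6c probe set, with a mean of 10.18, gave 0.03, and its genotypes overlapped. Ndufa4 read 8.37, 8.81 and 8.43 in Klf3-/- mice, against 7.90, 8.54 and 8.20 in WT mice (0.32, SE 0.24, adjusted p = 0.943). WT mouse 2 lay within the Klf3-/- range. Cox5a, a subunit on the matrix side, averaged 10.27 ± 0.06 in Klf3-/- and 10.47 ± 0.14 in WT eosinophils (SD, n = 3 each; -0.21, SE 0.17), and Cox4i1, the common isoform of subunit 4, had -0.18 (SE 0.21).

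The tissue-restricted isoforms had 2 higher and 5 lower, with a median of -0.10. Cox4i2, the isoform of subunit 4 known from lung and from low oxygen, read 5.37, 4.72 and 4.45 in Klf3-/- mice 1 to 3, against 5.91, 5.29 and 6.11 in WT mice 1 to 3. Its log2 fold change was -0.92 (SE 0.32, unadjusted p = 0.023, adjusted p = 0.868), and the exact permutation test gave p = 0.2. Klf3-/- mouse 1 lay above WT mouse 2, so the genotypes overlapped. The 6 values ran from 4.45 to 6.11, around the olfactory receptor level of 5.10. That level served as background and is the 95th percentile of the 44 olfactory receptor probe sets. Of the arrays, 1 of 3 Klf3-/- and 3 of 3 WT lay above it. With most Klf3-/- values below background, the size of the fold change is uncertain. The deposited intensities were 45.1, 34.8 and 18.3 in Klf3-/- mice, against 51.6, 51.3 and 46.3 in WT mice, and on that scale all Klf3-/- arrays lay below all WT arrays. The log2 fold change of the deposited values was -0.70, with an unadjusted limma p of 0.144. On the normalised values, analysis of variance gave an unadjusted p of 0.067 (one-way) and 0.131 (with the replicate number). The unadjusted limma p of the normalised values was between 0.008 and 0.077 when each array was left out in turn. It was above 0.05 without Klf3-/- mouse 2 (0.064) or 3 (0.077) and without WT mouse 1 (0.068) or 3 (0.077).

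The other 6 isoforms had log2 fold changes between -0.18 and 0.14. Cox7a1, the isoform of heart, skeletal muscle and brown fat, read 5.05, 5.69 and 6.71 in Klf3-/- mice 1 to 3, against 5.45, 5.88 and 5.72 in WT mice 1 to 3 (0.14, SE 0.40, adjusted p = 0.983). Klf3-/- mice supplied both the highest and the lowest of the 6 values, and without Klf3-/- mouse 3 the log2 fold change was -0.31. Cox8b, another isoform of muscle and brown fat, averaged 6.12 ± 0.29 in Klf3-/- and 6.20 ± 0.42 in WT eosinophils (SD, n = 3 each). Cox6a2, the isoform of heart and skeletal muscle, averaged 6.05 ± 0.19 in Klf3-/- and 6.21 ± 0.21 in WT eosinophils. Cox6b2, Cox8c and Cox7b2, known from testis, had log2 fold changes of -0.10, -0.18 and 0.00. Cox7b2 lay below the olfactory receptor level at 3.10 in both genotypes. As deposited, Cox6a2, Cox6b2, Cox8b and Cox8c had positive log2 fold changes, between 0.04 and 0.17, where the median of all genes was 0.13. Of the 10 skeletal muscle markers, 2 lay above the olfactory receptor level, and of the 7 brown and beige adipocyte markers, 2 did.

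**Figure D3:**
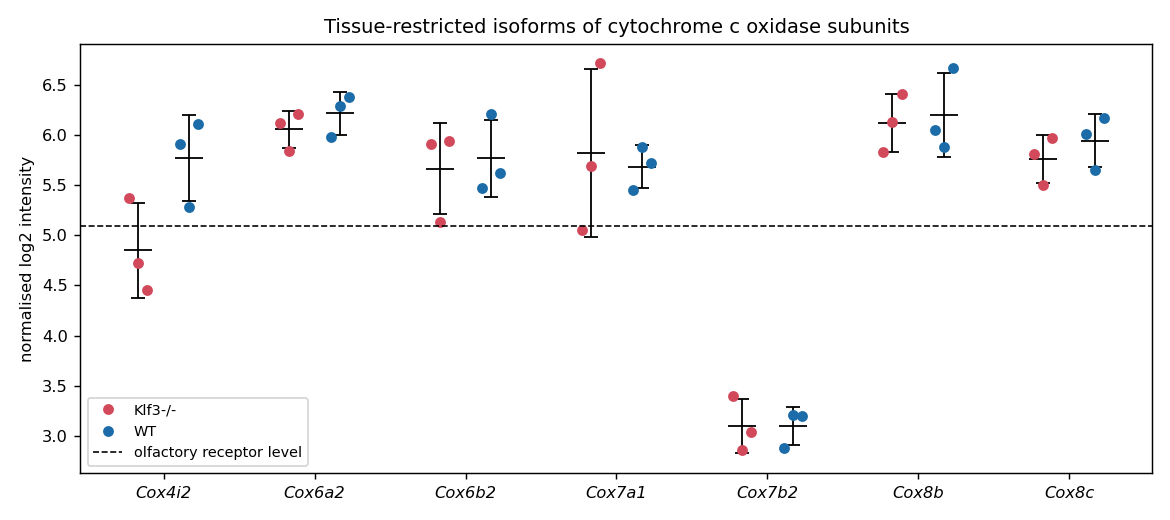
Normalised log2 intensity (vertical axis) of the 7 tissue-restricted isoforms of cytochrome c oxidase in each Klf3-/- (red) and WT (blue) array, with black bars for the mean ± SD of 3 mice. A dashed line marks the olfactory receptor level (5.10), which 1 Klf3-/- array and 3 WT arrays exceed for Cox4i2, while Cox7b2 lies below it on all arrays.

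Complex V was divided by the parts of ATP synthase. The 5 subunits of the F1 catalytic head had 2 higher and 3 lower (median -0.07), the 3 genes of the c ring had 3 and 0 (0.13), the 4 genes of the peripheral stalk had 1 and 3 (-0.08), and the 5 accessory membrane subunits had 2 and 3 (-0.17). Atp5k, the e subunit that takes part in dimers of the enzyme, read 7.60, 7.35 and 7.55 in Klf3-/- mice 1 to 3, against 7.09, 7.15 and 7.32 in WT mice 1 to 3 (0.32, SE 0.18, unadjusted p = 0.121, adjusted p = 0.910). Every Klf3-/- array lay above every WT array, and the other Atp5k probe set also gave 0.32. Atp5l, the g subunit that lies beside it, read 8.06, 7.95 and 7.87 in Klf3-/- mice, against 7.98, 8.65 and 7.98 in WT mice (-0.24, SE 0.24, adjusted p = 0.954). Klf3-/- mouse 1 lay above WT mice 1 and 3 for Atp5l. Atp5g2, 1 of the 3 genes for the same c subunit, read 7.28, 7.52 and 7.34 in Klf3-/- mice, against 7.29, 7.47 and 6.35 in WT mice (0.34, SE 0.31, adjusted p = 0.954). The low value was that of WT mouse 3, and without that array the log2 fold change was -0.0035. Atp5c1, the gamma subunit that turns inside the head, averaged 11.30 ± 0.09 in Klf3-/- and 11.24 ± 0.20 in WT eosinophils (SD, n = 3 each). Atp5e, the epsilon subunit beside it, averaged 8.48 ± 0.12 in Klf3-/- and 8.71 ± 0.24 in WT eosinophils (SD, n = 3 each).

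Cox7a2l, which links complexes III and IV in supercomplexes, was the one member with all Klf3-/- arrays below all WT arrays. It read 10.64, 10.16 and 10.19 in Klf3-/- mice 1 to 3, against 10.71, 10.79 and 10.74 in WT mice 1 to 3 (-0.41, SE 0.20, unadjusted p = 0.075, adjusted p = 0.910, exact permutation p = 0.1). Its other probe sets gave -0.33 and -0.24. The WT values spanned less than the Klf3-/- values, of which mouse 1 lay closest to WT. Ndufa4l2, a paralogue of Ndufa4 known from low oxygen, read 6.19, 5.39 and 6.38 in Klf3-/- mice, against 5.91, 5.54 and 6.15 in WT mice (0.12, SE 0.31, adjusted p = 0.981), and the genotypes overlapped. The 7 complex I assembly factors of the Ndufaf series lay between -0.24 and 0.30, and Ndufaf1 was below the olfactory receptor level.

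The median level of the subunits varied more between arrays of a genotype than between the genotypes. For each array the deviation of each gene from its mean over the 6 arrays was taken, and its median over the 77 subunits was 0.09, -0.18 and 0.07 in Klf3-/- mice 1 to 3, against -0.07, 0.06 and 0.03 in WT mice 1 to 3. The array of Klf3-/- mouse 2 was thus lowest, and it was so in each complex, with -0.18 in complex I, -0.33 in complex II, -0.17 in complex III, -0.14 in complex IV and -0.13 in complex V. It read lowest of the 6 for 33 of 77 subunits (42.9%), where its deviation over all genes was -0.08 and it read lowest for 24.1% of all genes, 23.6% of genes with a mean of at least 8, 41.9% of the cytosolic ribosomal protein genes and 35.6% of the mitochondrial ribosomal protein genes. Averaged over 3 mice each, it was -0.01 ± 0.15 (SD) for Klf3-/- mice and 0.01 ± 0.07 (SD) for WT mice, so the difference between genotypes was smaller than the spread within them. That place of Klf3-/- mouse 2 holds for the normalised values only. On the values as deposited its array had the highest median intensity of the 6, 58.7, against 30.3 to 56.5 for the others, and it read lowest for 0 of 77 subunits. There the median deviation over the subunits was 0.19, 0.44 and -0.32 in Klf3-/- mice 1 to 3, against -0.30, 0.66 and -0.65 in WT mice 1 to 3, so that WT mouse 2 was highest and WT mouse 3 lowest. The deviations over all genes on that scale were 0.08, 0.45 and -0.34 in Klf3-/- mice, against -0.18, 0.43 and -0.51 in WT mice. Without Klf3-/- mouse 2 the median log2 fold change of the normalised values was 0.12 in complex I and 0.16 in complex III. The number of members with all Klf3-/- arrays above all WT arrays was then 14 of 87 (16.1%), where 9.91% of all genes were so placed. That array was singled out for its low values in these same genes, so leaving it out raises these figures by construction. No conclusion about the genotypes is drawn from them.

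**Figure D4:**
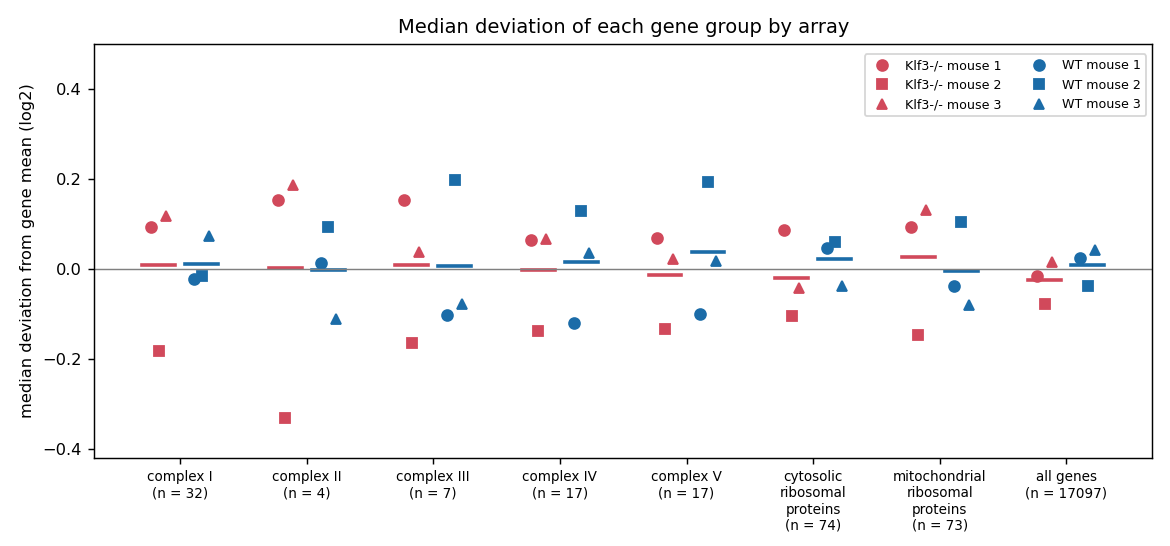
Median over genes of the deviation of the normalised value from each gene's mean over the 6 arrays (vertical axis, log2 units), for complexes I to V, the cytosolic and mitochondrial ribosomal proteins and all genes. Each symbol is 1 array, Klf3-/- in red and WT in blue, with horizontal bars for the genotype means. The square of Klf3-/- mouse 2 is the lowest symbol of each complex, between -0.33 and -0.13.

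The labels call the mice litter-matched, and arrays of the same replicate number shared some variation. Within replicates 1 to 3, the median of the Klf3-/- minus WT differences over the 77 subunits was 0.10, -0.23 and 0.05, with 56, 21 and 45 subunits higher in the Klf3-/- array. The pairs thus did not share a direction. The Klf3-/- array was the higher of the pair in all 3 pairs for 9 of 77 subunits, where 11.8% of all genes did so, and the lower in all 3 for 8 of 77, where 18.8% of all genes did so.

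Ribosomal proteins, which build the cytosolic and the mitochondrial ribosome, were set beside the respiratory chain as other large complexes. The 74 cytosolic ribosomal protein genes had 23 higher and 51 lower in Klf3-/- eosinophils (median -0.05), and the 73 mitochondrial ribosomal protein genes had 34 and 39 (median -0.01). As deposited, 62 of 74 and 59 of 73 were higher. No gene of either family passed the adjusted threshold in limma. At an unadjusted limma p under 0.05 there were 1 higher and 0 lower among the cytosolic and 0 among the mitochondrial ones. Over all genes 3.61% were higher and 2.47% lower at that p. Differences between the families were not tested.

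Genes that supply, build or use the chain were listed by function. Of 36 measured assembly factors outside the naming rule, 17 were higher and 19 lower (median -0.03), and Sdhaf4, an assembly factor of complex II, was the one at an unadjusted limma p under 0.05 (0.61, SE 0.25, adjusted p = 0.901). With the replicate number as a block Sdhaf4 was no longer under 0.05, while Sdhaf1 (log2 fold change -1.12), Bcs1l (0.65) and Uqcc1 (0.53) were. Under that block 4.45% of all genes were higher and 3.5% lower at an unadjusted limma p under 0.05. For 2 assembly factors every Klf3-/- array lay below every WT array, where 6.55% of all genes did so. They were Timmdc1 (-0.29) and Tmem126b (-0.55), the latter with a mean of 5.08, below the olfactory receptor level. The 15 genes of the tricarboxylic acid cycle had 6 higher and 9 lower (median -0.10), and for Cs, Idh3b, Idh3g and Sucla2 every Klf3-/- array lay below every WT array, as it did for 6.55% of all genes. Cs, citrate synthase, averaged 9.85 ± 0.10 in Klf3-/- and 10.14 ± 0.08 in WT eosinophils (SD, n = 3 each; -0.29, adjusted p = 0.911). The 12 carriers, porins and import proteins had 2 higher and 10 lower (median -0.12), and Vdac2, Slc25a5 and Tomm20 were without overlap in the same direction, each with a log2 fold change of -0.15. Cytochrome c, encoded by Cycs, read 10.10, 9.57 and 10.12 in Klf3-/- mice 1 to 3, against 10.20, 10.51 and 10.28 in WT mice 1 to 3 (-0.40, SE 0.22, adjusted p = 0.910), without overlap. As deposited the genotypes overlapped for those 2 assembly factors and for the 8 genes without overlap in the other lists. The log2 fold changes of those 8 genes there ran from -0.20 for Cycs to 0.05 for Tomm20. The 15 genes of mitochondrial biogenesis and mitochondrial DNA expression had 8 higher and 7 lower (median 0.02). None of these genes passed the adjusted threshold. As deposited, the medians of all of these lists were above 0, from 0.08 to 0.23, where the median of all genes was 0.13.

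**Figure D5:**
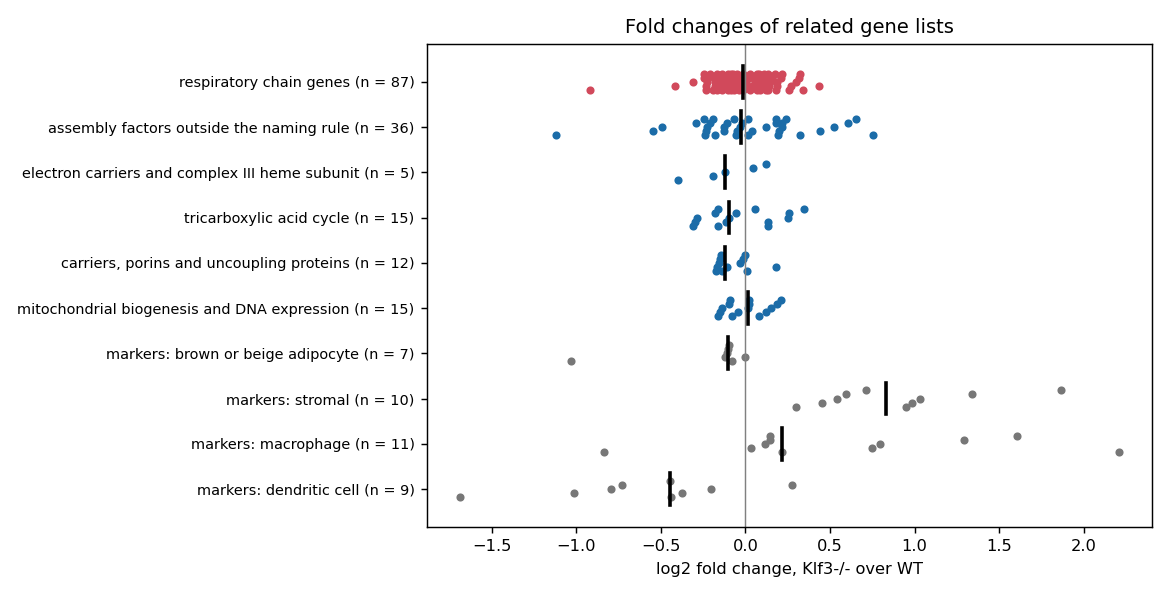
Log2 fold change, Klf3-/- over WT (horizontal axis), of each gene of the respiratory chain (red), of lists of mitochondrial function (blue) and of lists of cell type markers (grey). Each point is a gene and black bars are medians, which lie between -0.12 and 0.02 for the mitochondrial lists and at 0.83 for the 10 stromal markers.

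Markers of other cells differed between the samples. All 10 stromal markers were higher in Klf3-/- samples (median 0.83), with summed normalised intensities on the linear scale of 16104 to 26518 in Klf3-/- mice against 10104 to 17298 in WT mice, the highest being that of Klf3-/- mouse 2. Of 11 macrophage markers 10 were higher (median 0.21), with sums of 13770 to 32183 in Klf3-/- and 9683 to 18188 in WT mice, and of 9 dendritic cell markers 8 were lower (median -0.45), with sums of 16473 to 21236 in Klf3-/- and 21798 to 28207 in WT mice. At an unadjusted limma p under 0.05 were the stromal genes Dpt (log2 fold change 1.86), Cd34 (1.34), Dcn (0.71) and Pi16, the macrophage genes Lyve1 (2.21) and Folr2 (1.60), the dendritic cell genes Itgax (-1.69) and H2-Eb1 (-0.79) and the muscle myosin Myh1, and none of them passed after adjustment. Pi16 was higher in Klf3-/- samples, with all WT arrays below the olfactory receptor level, and Myh1 was lower, with all Klf3-/- arrays below it, so no fold is given for either. With the replicate number as a block Dcn was no longer under 0.05. The macrophage genes Cd163 (log2 fold change 1.29) and Timd4 (-0.84) and the dendritic cell gene Xcr1 (-1.01) were under it with that block. The 6 adipocyte and 4 erythroid markers measured had medians of -0.14 and 0.17. The brown and beige adipocyte markers had 0 higher and 7 lower (median -0.10), 5 of them with means below the level, and as deposited 6 of the 7 were higher. Their sums were 194 to 239 in Klf3-/- and 252 to 314 in WT mice, and without Tmem26 they overlapped, at 137 to 157 in Klf3-/- and 134 to 189 in WT mice. Tmem26, a surface marker of beige cells, was the one at an unadjusted p under 0.05 (-1.03, adjusted p = 0.868), and Ucp1 averaged 4.67 ± 0.15 in Klf3-/- and 4.78 ± 0.35 in WT samples (SD, n = 3 each), below the level. The part of any other cell type in the values of the respiratory chain was not tested. Klf3 itself was read by 6 probe sets, 5 with every Klf3-/- array above every WT array and 1 with every one below, and since the sources used here do not say whether they lie in the disrupted part of Klf3, the genotype was left unchecked by them.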

How the data were processed

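RNA was amplified by the authors (Affymetrix 3′ IVT Pico Kit), and their processing notes name Partek Genomics Suite v7 for the arrays, with RMA named in the paper. The deposited values are linear intensities, 1 column per mouse for 45037 probe sets, and 0 further sample columns were found. Array medians ran from 30.3 to 58.7, a ratio of 1.94, so log2 intensities were quantile-normalised between arrays. The sources used here do not say which steps of RMA were applied. Genotype was the only term of the linear models (limma 3.58.1 with lmFit and eBayes, R 4.3.3), which were tested on simulated data. The number of arrays limits the precision.

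Gene names came from the platform annotation (28898 probe sets with 1 symbol, 551 with several, 15588 with none), and all 87 member symbols matched RefSeq on GRCm38.p6. Of the members, 41 had more than 1 probe set, and the fold changes of 21 of these had the same sign in all of them. Of all probe sets, 24912 (55.3%) lay above the olfactory receptor level.

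Members, lists, roles and tests were chosen with earlier results of these data known. The genes named are all Sdh genes, in each other complex the brightest subunit, the 2 with the smallest p in each direction and any at an unadjusted p under 0.05, all tissue-restricted Cox isoforms, Ndufa4, Ndufa4l2 and Cox7a2l, and of each other list those at an unadjusted p under 0.05, at most 4. Further genes were named after their values were seen, where genotypes did not overlap, where a promoter window is printed or where an interval is wide.

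Per the labels, mice were matched by litter. Same-numbered arrays deviated together from their genotype means (r = 0.17, 0.23 and 0.21, against -0.18 to -0.01 for other pairs), so the numbers were taken to pair the samples. Alternatives were the values as deposited or median-centred, leaving out each array, the mean of a gene's probe sets, no cross-hybridising probe sets, a filter on dim probe sets, the replicate block, trend and robust fitting, array weights, and analysis of variance, which the paper's methods name as two-way without the second factor being stated in the sources used here.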

Additional observations from a re-analysis of the deposited data

How the results depend on the processing

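The count of members past an adjusted p of 0.05 was 0 under every alternative listed above. With the replicate number as a block, for the paired arrays, it was also 0, with 40 members higher and 47 lower as without it and Cox4i2 still the only one at an unadjusted limma p under 0.05. The block changed no call of a member. Under the values as deposited, the median log2 fold changes were 0.19 in complex I, 0.25 in complex II, 0.15 in complex III, 0.17 in complex IV, 0.13 in complex V and 0.18 over all subunits. There 79 members were higher and 8 lower, and the median of all genes was also raised, to 0.13. At an unadjusted limma p under 0.05, 0 members were higher (against 3.16% of all genes) and 0 lower (against 0.181%). Without overlap, 0 members were higher (against 4.21%) and 1 was lower (1.15%, against 0.316%). Without cross-hybridising probe sets, the median of complex III was 0.18. Only Uqcrq changed its probe set there, among the members of complex III. Its log2 fold change went from -0.05 to 0.31, on a probe set with a mean of 4.67, below the olfactory receptor level. At an unadjusted p under 0.05, array weights gave 1 member higher (1.15%, against 4.54% of all genes). The one-way analysis of variance gave 3 higher (3.45%, against 2.29%) and 0 lower (against 3.08%), and the two-way analysis with the replicate block 1 higher (1.15%, against 2.05%) and 2 lower (2.3%, against 3.83%).

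Leaving out 1 array at a time, the medians ran from -0.047 to 0.12 in complex I, from -0.081 to 0.16 in complex III and from -0.19 to 0.12 in complex IV. The highest values of complexes I and III were those without Klf3-/- mouse 2. For complex IV the lowest was without Klf3-/- mouse 3 and the highest without WT mouse 2. Counts at an unadjusted p under 0.05 ran from 0 to 1 for higher and from 0 to 2 for lower, where 2.75% to 4.16% of all genes were higher and 1.85% to 2.75% lower, with 2 lower without Klf3-/- mouse 1 and 0 without Klf3-/- mouse 2 or 3 or WT mouse 1 or 3. Counts without overlap ran from 3 to 14 for higher and from 3 to 9 for lower, where fewer arrays make separation easier by construction and 8.13% to 10.1% of all genes were higher and 10.8% to 14.8% lower. Without Klf3-/- mouse 2 the higher count was 14 (16.1%, against 9.91% of all genes). That array had the lowest normalised subunit values, so leaving it out raises this count by construction. The higher count was 8 without WT mouse 2 (9.2%, against 8.45%) and 7 without WT mouse 3 (8.05%, against 10.1%). The lower count was at least 3 whichever array was left out.

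Some single genes changed sign. As deposited, the values were 0.072 for Cox6a2, 0.076 for Cox6b2, 0.17 for Cox8b, 0.045 for Cox8c, 0.011 for Ndufa7, 0.18 for Ndufb11, 0.063 for Sdhb, 0.20 for Sdhd and 0.041 for Uqcrc2. After median centring they were -0.0037 for Atp5c1 and -0.14 for Cox7b2, and with array weights 0.057 for Cox6b2 and 0.045 for Ndufb11. Leaving out 1 array at a time gave -0.020 to 0.17 for Atp5c1, -0.0035 to 0.56 for Atp5g2, -0.25 to 0.16 for Cox6b2, -0.31 to 0.52 for Cox7a1, -0.14 to 0.12 for Cox7b2 and -0.24 to 0.16 for Cox8b. It gave -0.074 to 0.42 for Ndufa4l2, -0.11 to 0.062 for Ndufb11, -0.28 to 0.051 for Sdhb and -0.19 to 0.23 for Sdhd. The cause of these changes was not tested. The number of arrays, and for the isoforms of complex IV the low signal over background, limit what can be told.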
